A study of Mus musculus with 6 samples.

Results

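Replication-dependent histone genes encode the bulk of the histones that package newly copied DNA. They are small genes without introns, their messenger RNAs end in a stem-loop instead of a poly(A) tail, and they are transcribed mainly in S phase, when the coactivator NPAT gathers at the clusters and the stem-loop binding protein SLBP takes the transcripts through processing and translation. H2A and H2B genes often stand head to head and share a promoter. The H3 genes of these clusters make the replication-coupled forms of H3, whereas the variant H3.3, which HIRA deposits outside replication, comes from separate genes with introns and poly(A) tails.

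The histone genes described here were the protein-coding genes of the mouse RefSeq table (GRCm38.p6, the assembly behind mm10) whose symbols name a clustered H1, H2A, H2B, H3 or H4 gene (H1f1 to H1f5, H2ac, H2bc, H3c and H4c, or the older Hist1 to Hist4 symbols). The rule found 62 of 21779 protein-coding genes in the map: 5 for the linker histone H1, 17 for H2A, 16 for H2B, 12 for H3 and 12 for H4. Neighbours within 100 kb of each other formed 5 groups. The chromosome 3 group ran from H2ac21 to H2bc18 (chr3:96219885-96270192, 10 genes over 50.3 kb). On chromosome 13 the first group ran from H2bc13 to H2ac24 (chr13:21715711-21833475, 17 genes over 117.8 kb) and the second from H2ac12 to H2bc11 (chr13:22035122-22043658, 5 genes over 8.54 kb). The third ran from H4c8 to H1f1 (chr13:23531044-23764412, 28 genes over 233.4 kb), and the fourth held only H2bc1 and H2ac1 (chr13:23933725-23934913, 1.19 kb), which encode testis forms of H2B and H2A.

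The series profiled histone H3.3 by ChIP-seq in hematopoietic stem cells (HSCs), sorted from the bone marrow of adult mice of strain C57BL/6, wild-type or with Hira deleted conditionally in the blood system, to ask how HIRA shapes H3.3. It comprised 6 libraries: 2 WT H3.3 ChIP, 2 HIRA KO H3.3 ChIP, 1 WT input and 1 HIRA KO input. The treatment text, which is the same for wild-type and knockout libraries, gives 2 intraperitoneal injections of poly(I:C) at 20 ug each and a sort 7 days after the first. Micrococcal nuclease was used to cut the chromatin, and a rat monoclonal antibody against H3.3 to pull it down. For the Cre driver, the exact age of the mice and any pooling of animals, nothing is given in the sources used here. The values analysed were 1 map of the genome into 18 chromatin states in bins of 200 bp, tied to wild-type HSC H3.3 by its file name only. It has no replicates, no knockout column and no read counts, so the depth is unknown, no comparison between genotypes was made here, and the sorted cell type could not be checked against its markers. The confidence interval printed below is a 95% Wilson interval that covers counting error only, and neighbouring genes that share a segment are not independent.

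The file numbers the states without naming them, so they are placed here by the bases they covered. States 3 to 6 covered 1.13% of the genome and held a transcription start of 51.6% of the 17492 protein-coding genes with a listed start. States 1 and 2 covered 0.594%, states 7 and 8 5.58%, state 16 3.17%, state 17 15.2% and state 18 55.0%.

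The sequence in front of the starts of 5 histone genes is shown because their starts lay in 5 different states: state 5 at H2bc12, state 18 at the testis gene H2bc1, state 9 at H1f5, state 1 at H3c2 and state 2 at H4c17. Each is the 250 bases before the RefSeq start, 5′ to 3′ on the strand of the gene: H2bc12 at chr13:22035571-22035820 (plus), H2bc1 at chr13:23934157-23934406 (minus), H1f5 at chr13:21780626-21780875 (minus), H3c2 at chr13:23752095-23752344 (plus) and H4c17 at chr13:21811496-21811745 (plus), all from RefSeq on GRCm38.p6. Capitals mark matches, on either strand, to TATAAA (the TATA box), CCAAT (the CCAAT box) and ATTTGCAT (the octamer bound by POU2F1).
H2bc12: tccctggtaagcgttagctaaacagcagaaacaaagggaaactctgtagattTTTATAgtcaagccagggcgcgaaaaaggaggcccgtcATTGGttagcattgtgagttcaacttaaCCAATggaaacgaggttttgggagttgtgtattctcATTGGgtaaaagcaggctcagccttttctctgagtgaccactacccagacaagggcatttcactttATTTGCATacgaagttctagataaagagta
H2bc1: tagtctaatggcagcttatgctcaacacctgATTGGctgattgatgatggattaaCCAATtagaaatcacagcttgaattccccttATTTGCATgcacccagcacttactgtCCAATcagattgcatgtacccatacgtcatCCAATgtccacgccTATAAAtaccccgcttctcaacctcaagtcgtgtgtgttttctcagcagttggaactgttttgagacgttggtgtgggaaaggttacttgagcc
H1f5: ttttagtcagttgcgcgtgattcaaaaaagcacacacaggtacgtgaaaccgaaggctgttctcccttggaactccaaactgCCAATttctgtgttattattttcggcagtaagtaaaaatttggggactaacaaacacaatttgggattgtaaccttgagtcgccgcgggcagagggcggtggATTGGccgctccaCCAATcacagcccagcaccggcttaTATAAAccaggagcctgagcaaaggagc
H3c2: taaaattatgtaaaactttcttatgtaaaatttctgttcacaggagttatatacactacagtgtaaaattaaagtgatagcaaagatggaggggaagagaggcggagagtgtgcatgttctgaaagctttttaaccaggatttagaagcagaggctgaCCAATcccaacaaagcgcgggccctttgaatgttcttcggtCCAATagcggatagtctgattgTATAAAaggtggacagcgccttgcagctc
H4c17: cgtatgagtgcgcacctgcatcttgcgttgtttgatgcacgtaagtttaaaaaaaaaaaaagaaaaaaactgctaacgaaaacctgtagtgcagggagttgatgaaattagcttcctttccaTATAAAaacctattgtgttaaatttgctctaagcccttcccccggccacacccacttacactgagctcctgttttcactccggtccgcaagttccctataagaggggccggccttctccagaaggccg

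These 5 stretches held 1 TATA match each. The match stood close to the start in H1f5 and H3c2 and farther from it in the others, and in H2bc12 it was on the opposite strand. H2bc12 had 3 CCAAT matches, H2bc1 had 4, H1f5 had 3 and H3c2 had 2, whereas H4c17 had 0. The octamer was found in front of the H2B genes H2bc12 and H2bc1. No base of these or the other histone promoters belonged to matches of more than 1 of the motifs. A match is a description of the letters, not of a bound site.

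Among the histone genes, 57 of 62 had an entry in the promoter table, which runs from 250 bases before to 50 bases after the start. H2bc21, H4c14, H3c7, H2bc4 and H3c1 had none. TATAAA stood in 34 of the 57 promoters (59.6%), against 13.6% of 32851 promoters in the table. It was found in 4 of 5 H1, 11 of 17 H2A, 7 of 14 H2B, 4 of 10 H3 and 8 of 11 H4 promoters. CCAAT stood in 49 of 57 (86.0%, against 37.4% of all promoters): in every H1, H2A, H2B and H3 promoter with an entry and in 3 of 11 H4 promoters. ATTTGCAT stood in 12 (21.1%, against 1.74%), of which 6 belonged to H2A and 6 to H2B genes. Matches in H2A and H2B promoters that face each other are partly the same bases read from both genes.

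Some histone genes have near-identical copies nearby, and the states of these copies are uncertain because it is not given how reads that fit more than 1 place were treated. Over the 150 bases before the start, 11 promoters were at least 95% identical to another histone promoter. H2ac18 and H2ac19 were 100% identical, as were H2ac23 and H2ac24, H4c17 and H4c18, and H2bc23 and the gene now named H4bc24 (older symbol Hist1h2br). H3c14 and H3c15 were 99.3% identical, and H4c11 and H4c12 95.3%.

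States 3 to 6 were found at 53 of the 62 histone genes (85.5%, confidence interval 74.7 to 92.2%), counting a gene when either end of its record lay in one of them. Over all protein-coding genes the share was 47.6%. Both ends lay in states 3 to 6 in 41 histone genes (66.1%), against 2.13% of all genes. Histone genes are short, with a median record of 491 bp against 17217 bp for all genes, so the ends of a record often fall in the same segment. Among the other 1509 genes with a record of 1 kb or less, 35 had an end in these states (2.32%) and 29 had both (1.92%). Of the 57 histone genes with records that short, 49 had an end there (86.0%) and 41 had both (71.9%). Counted at the transcription start alone, which the promoter table gives for 57 members, 47 lay in states 3 to 6 (82.5%, against 51.6% of 17492 genes with a listed start).

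State 3 was the state seen most often. It lay at an end of 39 histone genes (62.9%, against 11.6% of all genes), among them H4c8, H2ac10, H1f3 and H1f1 at the start of transcription. State 5 lay at an end of 25 (40.3%, against 12.2%), including the starts of H2ac12, H2bc12, H4c9 and H2bc11 in the second group of chromosome 13. State 4 was found at an end of 6 (9.68%, against 9.39%) and state 6 at an end of 6 (9.68%, against 15.9%). Either state 4 or 6 was thus found at 10 genes (16.1%, against 25.1%), and state 3 or 5 at 47 (75.8%, against 23.5%). Among the other short genes, states 4 and 6 were found at an end of 1.06%, and states 3 and 5 at an end of 1.59%. At the start of transcription, state 3 held 22 of 57 genes (38.6%, against 12.6%), state 5 held 15 (26.3%, against 13.3%), state 6 held 6 (10.5%, against 18.4%) and state 4 held 4 (7.02%, against 10.9%).

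The 10 genes with an end in state 4 or 6 included H3c15, H2ac19, H2ac18, H3c14 and H3c13 of the chromosome 3 group. H3c15 with H2ac19 and H2ac18 with H3c14 are mirror copies: each unit holds an H2A and an H3 gene read in the same direction. The H3 genes started in state 6 (H3c15) and state 4 (H3c14), and both ended in state 2. The H2A genes H2ac19 and H2ac18 both started in state 6 and ended in state 4. The promoters of these 4 genes also had the highest GC content of the 57, at 72.7% for H3c15 and H3c14, 64.7% for H2ac18 and 63.7% for H2ac19, against a median of 45.3% for the histone genes and 52.7% for all promoters. The part of sequence copies in these states was not tested.

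**Figure D1:**
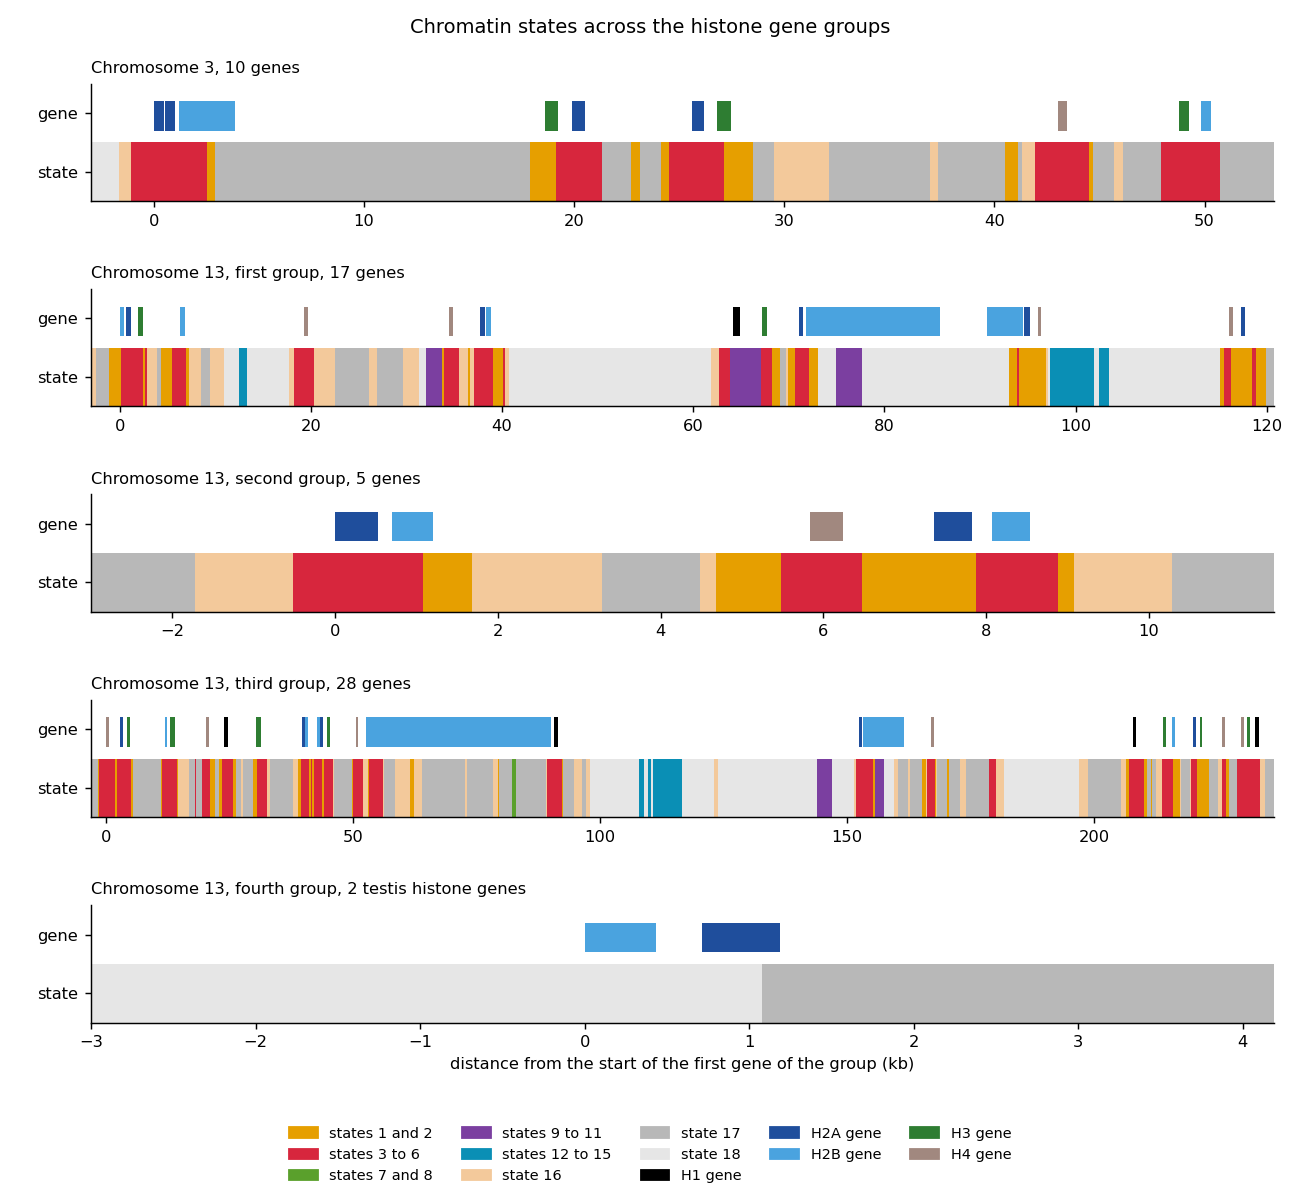
Chromatin states along the 5 groups (lower bar of each panel, coloured by state class) with the histone genes above (coloured by type), plotted by distance in kb from the start of the first gene. States 3 to 6, in red, form blocks at the genes, 36 blocks in all that touch a histone gene, and states 1 and 2, in orange, border 33 of them; the testis genes of the fourth group lie in states 17 and 18.

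Blocks of states 3 to 6 at the histone genes were close in median length to those at other genes. The map held 36 unbroken runs of these states that touched a member, with a median length of 2.0 kb and a range of 0.2 to 4.6 kb. Runs at the ends of other protein-coding genes, a narrower rule than touching the record, had a median of 2.2 kb (9098 runs). Of the 36 runs, 16 held 2 or more members. The longest, 4.6 kb, spanned H4c1, H3c1 and H1f1, and one of 3.6 kb spanned H2ac21, H2ac20 and H2bc21 on chromosome 3. Only states 3 and 5 made up 24 of the 36 runs (66.7%, against 17.8% of the other runs). By bases, state 3 took 63.7% of the histone runs and 31.2% of the others, state 5 took 24.1% and 22.1%, state 4 took 7.16% and 21.6%, and state 6 took 5.04% and 25.1%. The runs at H2bc9 and H3c7, at H2bc6 and H1f4, at H1f3, and at H3c3 and H2bc3 were state 3 throughout.

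States 1 and 2 stood at the edges of these runs. Of 36 runs, 33 had state 1 or 2 on at least 1 side (91.7%, against 35.2% of runs at other genes). Of the 72 borders of the histone runs, 48 led into state 1 or 2 (66.7%), 25.0% into state 16 and 6.94% into state 17. For the other runs the shares were 20.0%, 29.1% and 37.4%. None of the 72 borders led into state 7 or 8, the class into which 5.77% of the other borders led. Within 2 kb of their records, 51 of 62 histone genes had at least 1 base of state 1 or 2 (82.3%, against 38.2% of all genes), with state 1 at 41 (66.1%, against 21.8%) and state 2 at 28 (45.2%, against 30%). Other short genes had such a base in 32 of 1509 cases (2.12%). Few of these short genes, 52 of 1509 (3.45%), had any base of states 3 to 6 in that window, against 60 of 62 histone genes. The part of this difference in the shares of states 1 and 2 was not tested.

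An end of the gene itself lay in state 1 or 2 in 14 histone genes (22.6%, against 1.74% of all genes). State 1 was found at an end of H2bc13, H2bc12, H2ac11, H2ac7, H2bc3 and H3c2 (6 genes, 9.68%, against 0.794%). State 2 was found at an end of H3c15, H3c14, H2bc23, H2ac23, H4c17, H4c18, H2ac24 and H3c6 (8 genes, 12.9%, against 0.955%). At the transcription start the count was 7 of 57 (12.3%, against 1.21%): H2ac11 and H3c2 in state 1, and H2bc23, H2ac23, H4c17, H4c18 and H2ac24 in state 2. The 5 starts in state 2 all belonged to near-identical copies.

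**Figure D2:**
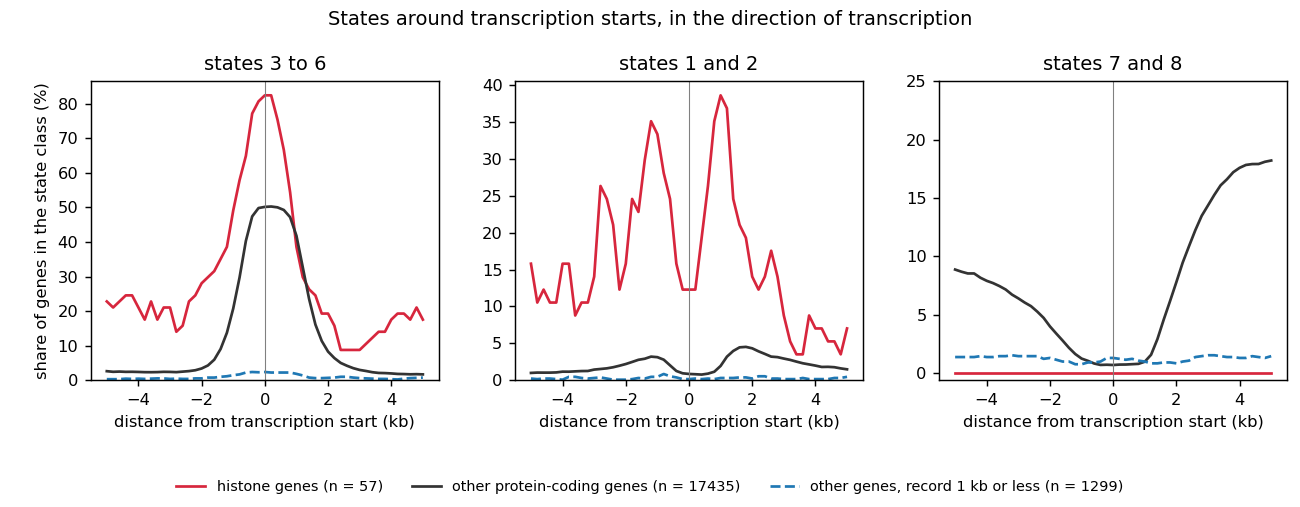
Share of genes (%) whose bin lay in states 3 to 6, states 1 and 2, or states 7 and 8, against distance from the transcription start (kb, negative upstream), for 57 histone genes, 17435 other protein-coding genes and 1299 other genes with a record of 1 kb or less. Histone genes reach 82.5% for states 3 to 6 at the start, have shoulders of states 1 and 2 on both sides, and stay at 0 for states 7 and 8.

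The same order was seen when the genes were lined up at their starts and read in the direction of transcription. At the start, 82.5% of histone genes and 50.2% of other genes lay in states 3 to 6. At 1.2 kb upstream, 35.1% of histone genes lay in state 1 or 2, against 3.20% of other genes, and at 1 kb downstream 38.6% did, against 1.94%. Histone genes in states 7 and 8 numbered 0 of 57 at every distance up to 5 kb, whereas the share among other genes was 0.705% at the start, 14.4% at 3 kb and 18.2% at 5 kb downstream. Among other short genes it was 1.31%, 1.54% and 1.46% at these distances. Of these short genes, however, only 2.39% lay in states 3 to 6 at the start, against 82.5% of histone genes. The part of record length in the low share of states 7 and 8 was not tested. At 3 kb downstream, a distance beyond the end of most histone records, 50.9% of histone genes lay in state 17. The share there was 29.7% of other genes and 5.47% of other short genes. At 5 kb downstream, state 17 held 28.1% of histone genes and 28.4% of other genes.

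No histone gene had an end in state 7 or 8 (0 of 62, against 24.7% of all genes), and 1 had any base of them in its record or within 2 kb (1.61%, against 52.7%). That gene was H2bc6, whose record of 37455 bp is the longest of the members and held 1.93% of its window in those states. Other short genes had an end in state 7 or 8 in 1.59% of cases and any base of them in the window in 3.38%. Few of these short genes had an end in states 3 to 6 (2.32%), and the part of record length was not tested. States 9 to 11 were found at an end of 1 member, H1f5 (1.61%, against 23.9%). State 16 was found at an end of H2bc6 (1 gene, 1.61%, against 7.11%). State 17 was found at an end of H2bc21, H2bc4 and H2ac1 (3 genes, 4.84%, against 26.3%), and state 18 at an end of H2bc22, H2bc23, H2bc1 and H2ac1 (4 genes, 6.45%, against 34.3%). The other short genes had an end in state 16 in 1.46% of cases and in state 17 in 5.04%, near the shares of the histone genes. They had one in states 9 to 11 in 33.1% and in state 18 in 66.3%. H2bc21, H2bc22, H2bc23, H2bc6 and H2bc4 are the 5 members with a record over 1 kb, of 2667, 14079, 3788, 37455 and 8282 bp, so one of their ends lies away from the coding part shared by the family.

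Over the record with 2 kb on each side, states 3 to 6 took a median of 46.3% of the bases of a histone gene, with a range of 0 to 97.4%. At least 1 base of these states was present at 60 of 62 genes (96.8%, against 58.3% of all genes). The median over all protein-coding genes was 2.28%, and over other genes with short records 0%. States 1 and 2 took a median of 17.6%, against 0% for all genes. The largest shares of states 3 to 6 were those of H3c1 (97.4%), H2ac10 (82.7%), H2ac20 (80.6%), H2ac21 (79.5%) and H2ac7 (77.5%), which are an H3 and 4 H2A genes. The smallest were those of H2bc1 and H2ac1 (0% each), H4c17 (1.25%), H2bc23 (2.57%) and H2ac23 (4.39%).

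**Figure D3:**
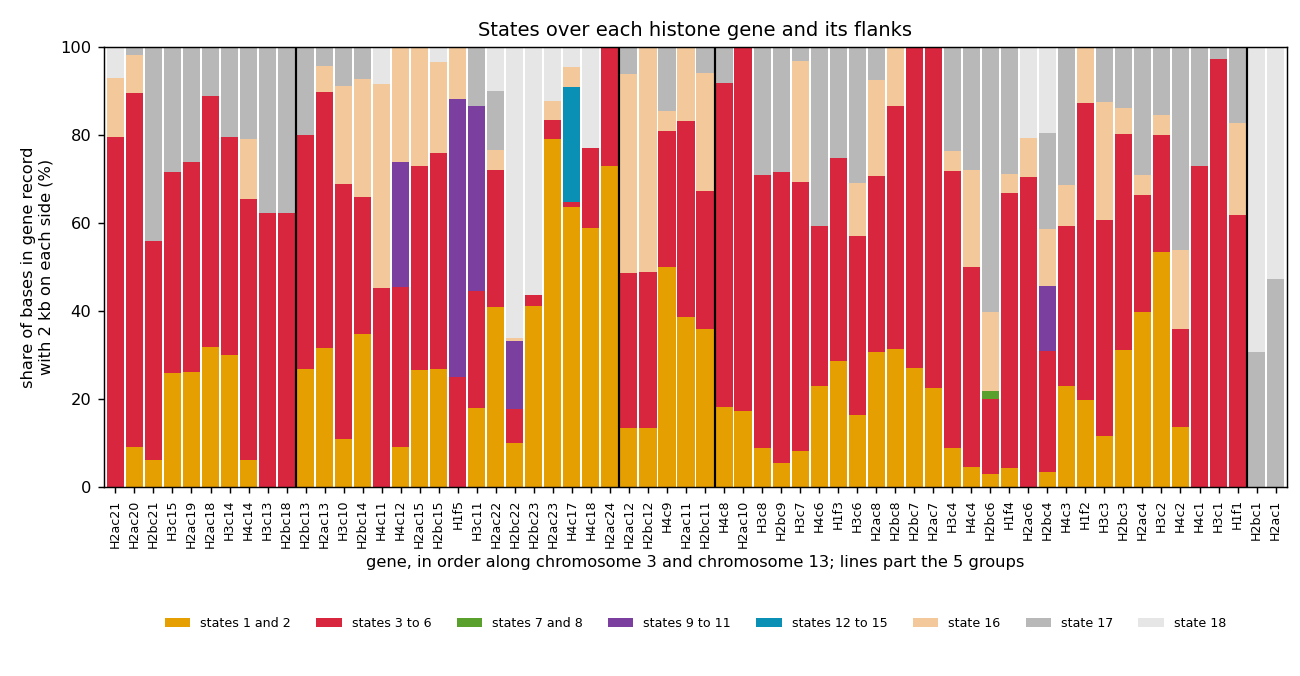
Share of bases (%) in each state class over the record of each histone gene with 2 kb on each side, in order along chromosome 3 and chromosome 13, with lines between the 5 groups. Red (states 3 to 6) and orange (states 1 and 2) fill most bars; purple (states 9 to 11) peaks at H1f5, and the 2 testis genes at the right hold only states 17 and 18.

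Taken as 1 region, these windows covered 239.7 kb. States 3 to 6 filled 32.4% of it, 28.6 times their share of the genome, and states 1 and 2 filled 14.8%, 24.9 times their share. State 3 alone filled 20.6% (59.3 times), state 1 8.18% (31.6 times) and state 2 6.62% (19.8 times). State 18, which covers most of the genome, filled 10.3% (0.187 times), and states 7 and 8 filled 0.334% (0.0598 times).

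The groups were unlike one another. Over all genes, 47.6% had an end in states 3 to 6, with a median window share of 2.28%. Among other short genes, 2.32% had such an end. In the chromosome 3 group all 10 genes (H2ac21, H2ac20, H2bc21, H3c15, H2ac19, H2ac18, H3c14, H4c14, H3c13 and H2bc18) had an end in states 3 to 6, with a median share of 58.2% over the window. State 17 filled 58.4% of this group from first to last gene, and state 18 filled 0%. H3c13, whose product like that of H3c14 and H3c15 is the form H3.2, started in state 4 and ended in state 3, and shared a run of 2.8 kb with H2bc18, which lay in state 3 at both ends. H4c14 stood alone in a run of 2.6 kb with ends in states 3 and 5.

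In the first group of chromosome 13, 12 of 17 genes had an end in states 3 to 6, and the median share was 31.2%. Here state 18 filled 48.9% of the group and states 12 to 15 filled 5.43%. H2bc13, at its beginning, lay in states 1 and 3, and H2ac24, at its end, in state 2 on both ends. In the second group 4 of 5 genes had such an end and the median share was 35.4%. H2ac12 and H2bc12 shared a run of 1.6 kb, H4c9 had 1.0 kb and H2bc11 had 1.0 kb, while states 1 and 2 filled 32.8% of the whole group. H2ac11, between H4c9 and H2bc11, lay in state 1 at both ends.

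In the third group, the largest, 27 of 28 genes had an end in states 3 to 6, with a median share of 58.2%. The group opened with H4c8 (states 3 and 5) and closed with H1f1 (states 3 and 5). Its exception was H3c2, in state 1 at both ends. The fourth group had 0 of 2.

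By histone type, an end in states 3 to 6 was found in 4 of 5 H1, 13 of 17 H2A, 14 of 16 H2B, 11 of 12 H3 and 11 of 12 H4 genes. Such an end was found in 47.6% of all genes, whose median window share was 2.28%, and in 2.32% of other short genes. Median window shares were 61.8% for H1, 46.6% for H2A, 42.3% for H2B, 53.8% for H3 and 36.5% for H4. The ranges overlapped widely, from 25.0 to 67.7% for H1 and from 1.25 to 73.9% for H4, and the differences between types were not tested.

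The 9 genes without an end in states 3 to 6 fell in 4 settings. H2bc23 (states 18 and 2), H2ac23 (state 2 at both ends) and H4c17 (state 2 at both ends) lay together in the first group and shared a state 2 segment of 2.4 kb. Past an interval of 19641 bp, the copies H4c18 and H2ac24 shared a state 2 segment of 2.2 kb, and H2ac24 had no end in states 3 to 6. H4c18, the partner of H4c17, started in state 2 like its copy, and its other end reached state 5. All of these genes have a near-identical promoter close by, and the part of that in their states was not tested.

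H2ac11 and H3c2 lay in state 1 at both ends, inside state 1 segments of 1.4 and 2.2 kb. Neither had a near-identical promoter: the closest matches were 74.7% identical for H2ac11 (to H2ac24) and 57.3% for H3c2 (to H2bc15). States 3 to 6 still took 44.7% and 26.7% of their windows, through the neighbours H4c9 and H2bc11 for the first and H2ac4 for the second. H2bc11 stands head to head with H2ac11, 248 bp away, and started in state 5, so the border between state 1 and state 5 fell between the starts of the pair.

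H1f5, which encodes a linker histone, was the only member with an end in state 9, and both its ends lay there (state 9 was found at an end of 7.89% of all genes). Its state 9 segment was 1.6 kb long, and states 9 to 11 took 63.1% of its window. The neighbour H3c11, 2289 bp away, lay in state 5 at both ends but had 42.1% of its window in states 9 to 11. The other H1 genes lay in state 3 at the start: H1f3, H1f4, H1f2 and H1f1, with 46.1%, 62.7%, 67.7% and 61.8% of their windows in states 3 to 6.

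H2bc1 and H2ac1, whose products are the H2B and H2A forms of the male germ line, started in the same state 18 segment of 13 kb, and H2ac1 ended in state 17. Their windows held 69.4% and 52.8% state 18, and the rest was state 17. They stand head to head, 280 bp apart, and both promoters hold matches to all 3 motifs. These data give no transcript level for any member.

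Between neighbouring histone genes within 100 kb there were 57 intervals, with a median of 1896 bp and a range of 58 to 60914 bp. Of their 315.2 kb, states 3 to 6 took 13.8%, against 1.93% in intervals between other protein-coding neighbours within the same distance. States 1 and 2 took 8.20%, state 17 27.7%, state 18 32.7%, and states 7 and 8 took 0%. States 3 to 6 filled 19 of the 57 from end to end (33.3%, against 5.55% of 16698 other intervals), and at least 1 base of state 1 or 2 lay in 34 (59.6%, against 20.7%).

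Length went with these shares, so intervals were also compared within classes of length. Under 1 kb, 16 of 23 lay wholly in states 3 to 6 (69.6%, against 46.1%), and from 1 to 10 kb 3 of 26 did (11.5%, against 0.681%). These 3 were H2ac10 to H3c8 (1039 bp), H3c3 to H2bc3 (1212 bp) and H3c1 to H1f1 (1281 bp), all near the lower limit of the class. Over 10 kb 0 of 8 did, against 0%. State 1 or 2 was present in 6 of the 23 shortest (26.1%, against 1.24%), in 20 of the 26 from 1 to 10 kb (76.9%, against 14.5%) and in all 8 over 10 kb (100%, against 28.3%).

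**Figure D4:**
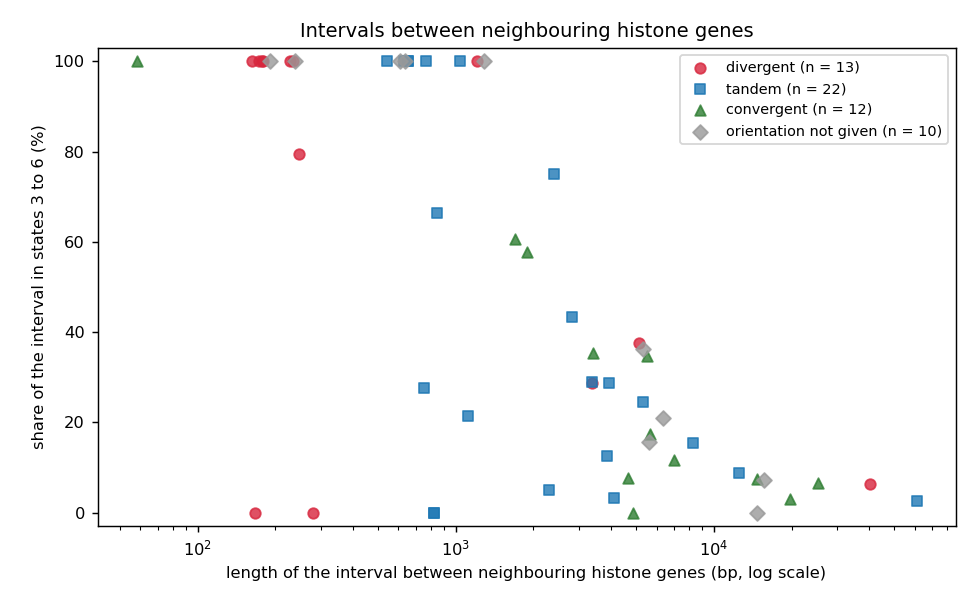
Share of each interval between neighbouring histone genes in states 3 to 6 (%) against its length (bp, log scale), for 13 divergent, 22 tandem and 12 convergent neighbours and 10 whose orientation is not given. Intervals at 100% are short, none of them over 10 kb, and 2 short divergent intervals, H2bc23 to H2ac23 and H2bc1 to H2ac1, sit at 0%.

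Head-to-head neighbours are the arrangement in which an H2A and an H2B gene can share a promoter. Divergent intervals under 1 kb had a median length of 179 bp between histone genes and 99 bp between other genes. Of the 9 between histone genes, 6 lay wholly in states 3 to 6 (66.7%, against 90.6% of 534 between other genes). These were H2bc13 to H2ac13, H2ac15 to H2bc15, H2ac22 to H2bc22, H2ac12 to H2bc12, H2ac8 to H2bc8 and H2bc7 to H2ac7. The other 3 were H2bc23 to H2ac23, wholly in state 2, H2bc1 to H2ac1, wholly in state 18, and H2ac11 to H2bc11, of which 79.4% lay in states 3 to 6 and 20.6% in state 1 or 2. State 1 or 2 was thus present in 2 of these 9 intervals, and in 0 of 534 of the others (0%).

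The 5 shortest intervals were H2ac21 to H2ac20 (58 bp, convergent), H2ac15 to H2bc15 (163 bp), H2bc23 to H2ac23 (167 bp), H2bc7 to H2ac7 (173 bp) and H2ac12 to H2bc12 (177 bp). With the exception of H2bc23 to H2ac23, they lay wholly in states 3 to 6. At under 200 bp each, they are shorter than a bin of the map, so their state is that of 1 or 2 bins. The 5 longest were H1f4 to H2ac6 (60914 bp, 2.49% in states 3 to 6), H4c3 to H1f2 (40348 bp, 6.32%), H2bc15 to H1f5 (25278 bp, 6.52%), H4c17 to H4c18 (19641 bp, 3.01%) and H3c14 to H4c14 (15585 bp, 7.27%). State 18 took 69.3% of the first of these, 37.7% of the second, 83.9% of the third and 63.1% of the fourth, but 0% of the interval on chromosome 3, where state 17 took 59.0%.

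Inside the groups, 2 protein-coding genes were not chosen by the rule, both in the third group of chromosome 13. Hfe, which encodes a regulator of iron uptake, started in state 5 and ended in state 17. H1f6, which encodes the testis linker histone, started in state 17 and its other end lay in state 1. Both sit in the long gap between H2bc4 and H1f2, on either side of H4c3, an H4 gene that started in state 5.

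A list for histone messenger RNA held 23 genes, of its synthesis, processing and turnover and of the cell cycle (among them Cdk2, Ccne1, Upf1 and Lsm1). The listed genes have longer records, of 2023 to 137600 bp. Their shares are therefore set beside those of all genes and not compared with the clustered genes. All 23 genes of that list had an end in states 3 to 6 (47.6% of all genes), 8 had an end in state 7 or 8 (24.7% of all genes), and 23 of 23 had states 7 or 8 within the record or 2 kb of it (52.7% of all genes). Npat, the coactivator of the histone clusters, lay in states 6 and 7, with 50.1% of its window in states 7 and 8. Slbp, the stem-loop binding protein, lay in states 5 and 17, with 49.5% of its window in states 7 and 8. State 4 or 6 was found at an end of 13 of the 23 (25.1% of all genes) and state 3 or 5 at an end of 10 (23.5% of all genes). State 1 or 2 was found at an end of 0 of 23, near the share of 1.74% over all genes. At least 1 base of state 1 or 2 lay within the record or 2 kb of it in 12 of the 23 (38.2% of all genes).

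Histone genes counted as replication-independent, most of which encode variants made outside the S-phase programme, were also looked up. Of 11, with records of 1062 to 62005 bp, 10 had an end in states 3 to 6 (47.6% of all genes), 5 had an end in state 7 or 8 (24.7% of all genes) and 7 had those states within the window (52.7% of all genes). State 1 or 2 was present in 3 windows (38.2% of all genes) and at 0 ends (1.74% of all genes), which are near the shares of all genes. The gene without an end in states 3 to 6 was Macroh2a2, which encodes a macroH2A variant, with ends in states 8 and 11 and a start in state 9. H3f3a, which encodes H3.3, had its ends in states 6 and 7, with 61.1% of its window in states 7 and 8. H3f3b, the other H3.3 gene, had its ends in states 5 and 17, with 0% in states 7 and 8. The listed transcription starts of both lay in state 6. Both H3.3 genes were named after their values had been seen, as the source of the variant that was precipitated.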

How the data were processed

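The map used here belongs to a series of H3.3 ChIP-seq libraries, and which of them entered it is not given. Per the submitters' processing notes, Bowtie2, deepTools, MACS2 and HOMER were used, without versions, on mm10. The value deposited by the authors is a state number (1 to 18) for each segment of 200 bp bins, 850831 segments in all, a category and not a quantity. Per the file headers, the states were ordered by emission in an 18-state model named for HSCs. On the tracks that entered the model, its caller's version and the handling of reads with several matches, nothing is given in the sources used here. The expanded version gave the same state in 100% of bins, and 0 per-sample columns were left unused.

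Segments were read with Python 3.11.15, numpy 2.4.6 and pandas 2.3.3, and looked up at both ends of each RefSeq record, over the record with 2 kb on each side, and in intervals within 100 kb. Strand and start came from the RefSeq promoter table, which held 57 of 62 members. Promoter identity was the share of the 150 bases before a start left without an edit when aligned inside another promoter with edlib. The lookup was tested on simulated segments. With 1 map no test over samples exists, so counts and medians are set beside those of all 21779 protein-coding genes. Of 21900 such genes in the table, those starting in the first 3 Mb of an autosome or chromosome X, or outside the map, were left out.

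Named genes were the first and last of each group, members without an end in states 3 to 6, the 5 extremes of window share and interval length, members outside the largest groups, members in rarely held states, non-histone genes inside the groups, list members without such an end, and Npat and Slbp. Others are examples chosen after their values were seen. The members and lists were chosen with earlier results of these data known. Alternatives changed the window, the interval limit, the members counted and the state class.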

Additional observations from a re-analysis of the deposited data

How the results depend on the processing

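Of the alternatives run for the share of histone genes with an end in states 3 to 6 (85.5%), the value moved beyond its counting interval on widening each end to all bins within 1 kb (95.2%) and in the largest group alone (96.4%). It was 76.5% outside that group, 89.7% with genes within 1 kb of each other counted once, 82.5% at the start of transcription alone, and, as alternatives chosen after seeing the data, 90.2% without near-identical promoters and 82.1% with 5 further histone genes. The median window share (46.3%) became 67.2% with 1 kb on each side, 29.9% with 5 kb and 58.2% in the largest group. The share of interval bases (13.8%) became 16.5% within 50 kb, 30.3% within 10 kb and 12.0% without segments of 1 bin. For all protein-coding genes the share with an end in states 3 to 6 (47.6%) was 48.7% on autosomes and 5.36% for records of 1 kb or less, which include 57 histone genes.

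No paired analysis was possible because the files hold 1 map with no columns for libraries. Depth, replicate error and the HIRA knockout could not be assessed from it. Near-identical copies, bins of 200 bp set against genes of a median 491 bp, and shared segments limit how far single genes can be told apart.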

Other observations

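Histone genes outside the rule were found in several states. H2aw and H4f16 (older symbols Hist3h2a and Hist4h4) lay in state 3 at both ends, with 79.9% and 54.1% of their windows in states 3 to 6. H2bu2 (older symbol Hist3h2ba) lay in state 9 at both ends, with 8.96% of its window in states 3 to 6. H4bc24 (older symbol Hist1h2br), whose promoter copies that of H2bc23, lay in states 2 and 17, with 41.1% of its window in states 1 and 2. H2bc23 had 41.1% there as well. Of the pseudogenes inside the groups, H2ac14 lay in states 3 and 6 and H2ac5-ps in state 3 at both ends. These genes were listed after the values were seen.

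Between the groups of chromosome 13, the stretches over 100 kb had other make-ups. From H2ac24 to H2ac12 (201.6 kb, 4 protein-coding genes), states 3 to 6 took 6.21% of bases and states 9 to 11 33.4%. From H2bc11 to H4c8 (1487 kb) states 3 to 6 took 1.99% and states 12 to 15 22.7%. That stretch held 41 protein-coding genes, 36 of them vomeronasal receptor genes of the Vmn1r family, and 4 with an end in states 3 to 6: Zfp322a, Abt1, Btn1a1 and Btn2a2. From H1f1 to the testis genes (169.3 kb) states 3 to 6 took 0.111% and state 18 took 75.6%.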
